A study of Bos taurus with 7 samples.

Results

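The 10 transcripts described here are listed as products of the mitochondrial genome, and were followed across bovine blastocysts grown from oocytes matured with or without metabolic inhibitors. They were chosen by Ensembl gene ID from a count table of 27607 gene IDs: ND1 (ENSBTAG00000043558), ND4 (ENSBTAG00000043577), CYTB (ENSBTAG00000043550), COX1 (ENSBTAG00000043561), COX2 (ENSBTAG00000043556), COX3 (ENSBTAG00000043560), ATP6 (ENSBTAG00000043584), ATP8 (ENSBTAG00000043564), and ENSBTAG00000043563 and ENSBTAG00000043546, which were listed as ND2 and ND5. All 10 had enough counts to be tested, among 15134 gene IDs that did. Libraries were made from total RNA of embryos at the blastocyst stage, 2 for control, 3 for the etomoxir group and 2 for the IO+DHEA group. Shares given below are of the counts in a library, and not of the total RNA. Etomoxir blocks carnitine palmitoyltransferase 1, through which long-chain fatty acids enter mitochondria for oxidation, and IO+DHEA was used against glucose metabolism. DHEA commonly stands for dehydroepiandrosterone, and IO is not spelled out by the submitters. All embryos came from oocytes matured in vitro, the agents were applied during that maturation, and the RNA was taken from the embryos that later reached the blastocyst stage. The number of embryos in a library, any pooling and the breed are not stated by the labels, and neither is it stated that replicates came from separate cultures, so p-values measure the spread between these libraries, which may be technical. Markers of blastocyst and other cells could not be checked, because the table gives gene IDs without symbols.

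The mitochondrial genome is a small circular DNA with 13 protein-coding genes, all for subunits of the respiratory chain and ATP synthase. The ND genes encode subunits of complex I, which takes electrons from NADH, and CYTB encodes the cytochrome b of complex III. COX1, COX2 and COX3 form the core of complex IV, which passes electrons to oxygen, and ATP6 and ATP8 belong to complex V, which makes ATP from the proton gradient. The genes are read as long joint transcripts that are then cut into single messages, so the level of each message also depends on how it is processed and how long it lasts. In cattle, the blastocyst is the stage at which mitochondrial activity and oxygen use of the embryo are known to increase.

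The names were checked against the order of the genes. For 8 of the 10 rows the spacing of rows in the count table equalled the spacing of the genes of those names in RefSeq's list of the 37 mitochondrial genes (assembly ARS-UCD2.0). ENSBTAG00000043563, listed as ND2, stood 22 places after the place of ND2 in that order, which is the place of ND5. ENSBTAG00000043546, listed as ND5, stood 1 place after that of ND5. Both lay between ND4 and CYTB. They are therefore called by their IDs, and no name is given to them. No value is therefore given here under the names ND2, ND3, ND4L, ND5 or ND6.

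The libraries held 84739741 to 122061453 counts. One library of the IO+DHEA group stood apart. IO+DHEA library 1 had a count for 12990 genes, against 15056 to 15898 in the other libraries, and a scaling factor of 0.840 by TMM (the trimmed mean of M-values, which sets the effective total of a library), against 0.982 to 1.09. The 2 libraries of this group also differed from each other in the transcripts described here, so the values of both are given, and calls that depend on 1 of them are also given with it left out.

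The 10 transcripts took a similar share of counts in control and etomoxir embryos, while the IO+DHEA libraries lay at opposite ends. Together they held 2.69% and 2.78% of all counts in control libraries 1 and 2. In etomoxir libraries 1, 2 and 3 they held 2.83%, 2.74% and 3.43%. IO+DHEA library 1 had 1.15% (95% Wilson interval 1.149% to 1.154%), the lowest of the 7, and IO+DHEA library 2 had 4.66% (4.651% to 4.659%), the highest. The intervals cover counting error alone: the reads carry no molecular identifiers and can be copies of 1 molecule. In such bulk samples, fewer cells of a type and less RNA per cell cannot be told apart.

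**Figure D1:**
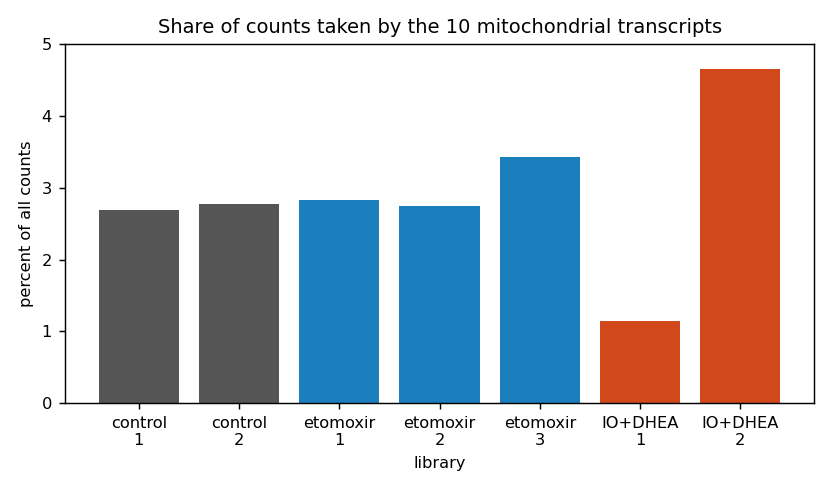
Percent of all counts in each library that fell on the 10 mitochondrial transcripts, with 1 bar per library, grey for control, blue for etomoxir and red for IO+DHEA. The control and etomoxir bars lie between 2.69% and 3.43%, with IO+DHEA library 1 below them at 1.15% and IO+DHEA library 2 above them at 4.66%.

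The group means did not show this. They were 2.73% ± 0.0635 in control (SD, n = 2), 2.999% ± 0.376 in etomoxir (SD, n = 3) and 2.90% ± 2.48 in IO+DHEA (SD, n = 2). The difference was 0.266 percentage points for etomoxir against control (exact two-sided permutation p = 0.4), 0.170 for IO+DHEA against control (exact permutation p = 1) and 0.0958 for etomoxir against IO+DHEA (exact permutation p = 1). Adjusted over the 6 library-level tests made here, these were 0.8, 1 and 1. No smaller p than 0.333 can be reached with 2 against 2 libraries, or 0.2 with 2 against 3. The difference of IO+DHEA from control was 1.92 percentage points when IO+DHEA library 1 was left out and -1.58 when library 2 was. The difference of etomoxir from IO+DHEA was -1.66 and 1.85 percentage points when these were left out in turn, and -0.120 without etomoxir library 3. For etomoxir against control the difference was 0.0504 percentage points without etomoxir library 3, and 0.351 and 0.396 without etomoxir libraries 1 and 2.

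Levels of single transcripts are given as CPM, the counts of a gene per 1000000 counts of the TMM-scaled library total, and fold changes on the log2 scale from 1 quasi-likelihood fit in edgeR over all tested genes and all 7 libraries. A transcript was called where the Benjamini-Hochberg adjusted p over those genes was under 0.05. Levels are compared between libraries for the same transcript and not between transcripts, since the values are not corrected for length. Genes overlap on this genome, as ATP8 and ATP6 do, and nuclear copies of mitochondrial sequence can share reads with it. The sources used here do not say how the counting treated such reads.

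**Figure D2:**
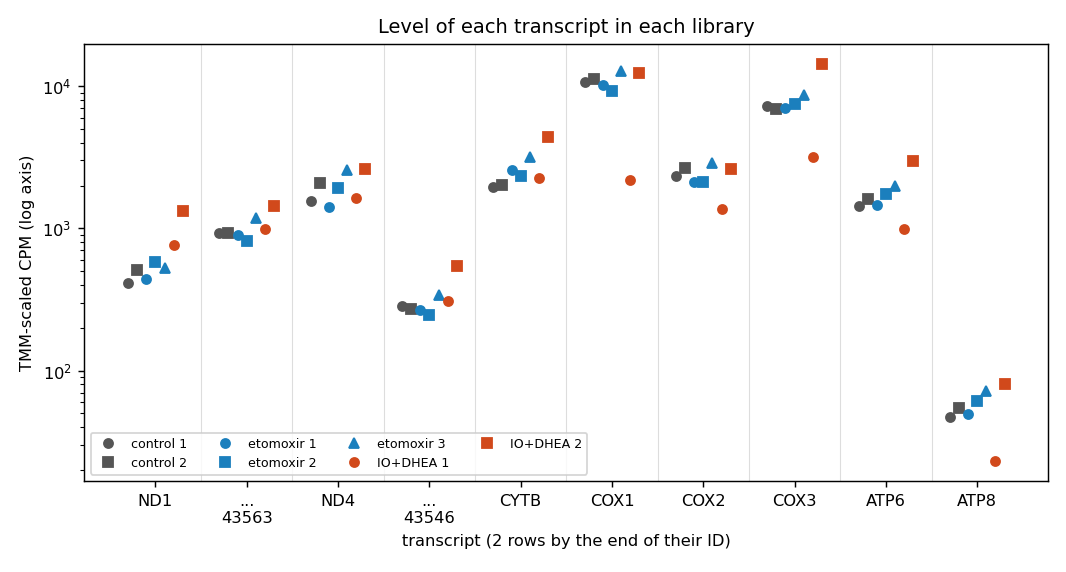
TMM-scaled CPM (log axis) of the 10 transcripts, with 1 point per library, colour for the group and shape for the library number. IO+DHEA library 1 is the lowest point for COX1, COX2, COX3, ATP6 and ATP8, and IO+DHEA library 2 is the highest point for every transcript but COX1 and COX2.

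Among the rows listed under complex I, ND1 was the transcript that set the IO+DHEA group apart. ND1 encodes a core membrane subunit of complex I near the site where ubiquinone binds. It was at 414 and 507 CPM in control libraries 1 and 2, 443, 577 and 527 CPM in etomoxir libraries 1, 2 and 3, and 769.5 and 1333 CPM in IO+DHEA libraries 1 and 2. Both IO+DHEA libraries were above all 5 others, which overlapped each other. Among all tested genes, 49.6% did not overlap between IO+DHEA and control, and 44.4% did not between etomoxir and IO+DHEA. ND1 was lower in etomoxir than in IO+DHEA by a log2 fold change of -1.03 ± 0.27 (SE), with an edgeR adjusted p of 0.0476, and in each of the 3 etomoxir libraries. Against control, ND1 in IO+DHEA was at a log2 fold change of 1.19 ± 0.30 (SE, edgeR adjusted p = 0.0567), just outside the threshold.

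The ND1 call lay close to the threshold on both sides. With median-of-ratios scaling the edgeR adjusted p of ND1 for IO+DHEA against control was 0.0498, with upper quartile scaling 0.0374 and with a filter of 5 CPM in 2 libraries 0.0251, while limma-voom gave 0.0470 and DESeq2 0.00140. For etomoxir against IO+DHEA the edgeR adjusted p was 0.0936 in a fit of these groups alone, and 0.0986 and 0.0974 without control libraries 1 and 2. It was 0.163, 0.127 and 0.148 when etomoxir libraries 1, 2 and 3 were left out in turn. With IO+DHEA library 1 alone the log2 fold change was -0.57 and the edgeR adjusted p 0.0696, and with IO+DHEA library 2 alone they were -1.40 and 0.00763. Over all alternatives the adjusted p of ND1 ran from 0.00140 to 0.289 against control and from 0.00172 to 0.171 against etomoxir, and ND1 stayed higher in IO+DHEA in each.

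The other rows listed under complex I were less separate. ND4, a membrane subunit of the proton-pumping arm, was at 1564 and 2070.4 CPM in control, 1413, 1911 and 2565 CPM in etomoxir and 1634 and 2622 CPM in IO+DHEA. All 3 groups overlapped for ND4, and the etomoxir libraries alone spanned most of its range. ENSBTAG00000043563 was at 934 and 921 CPM in control, 897, 809 and 1179 CPM in etomoxir and 995 and 1429 CPM in IO+DHEA. ENSBTAG00000043546 was at 283 and 273 CPM in control, 266, 246 and 343 CPM in etomoxir and 306 and 539.6 CPM in IO+DHEA. For both of these rows IO+DHEA lay above control and overlapped etomoxir after TMM scaling. Their log2 fold changes over control in IO+DHEA were 0.39 ± 0.27 (SE, edgeR adjusted p = 0.411) and 0.61 ± 0.30 (SE, edgeR adjusted p = 0.258). They were 0.66 and 0.99 with IO+DHEA library 1 left out, and 0.10 and 0.14 with library 2 left out. On unscaled totals IO+DHEA library 1 was below both controls for both rows. ENSBTAG00000043563 was then at 835 CPM against 935 and 904 in control, and ENSBTAG00000043546 at 257 CPM against 284 and 268.

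CYTB, the heme-binding subunit of complex III that the mitochondrion itself encodes, was above control in every treated library after TMM scaling. It was at 1958 and 2029.9 CPM in control, 2568, 2329 and 3172 CPM in etomoxir, and 2251 and 4375 CPM in IO+DHEA. CYTB was thus the transcript of the 10 for which etomoxir and control did not overlap, as was so for 25.3% of all tested genes. Its log2 fold change over control was 0.43 ± 0.31 in etomoxir (SE, edgeR adjusted p = 1) and 0.73 ± 0.33 in IO+DHEA (SE, edgeR adjusted p = 0.221), so neither difference passed the test. With IO+DHEA library 1 left out the difference of CYTB from control was 1.17 and with library 2 left out 0.17. On unscaled totals CYTB in IO+DHEA library 1 was at 1890 CPM, below the 1962 and 1993 CPM of control libraries 1 and 2.

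COX1 and COX3, both of complex IV, were the transcripts that differed most between the IO+DHEA libraries. COX1, which carries the site where oxygen is reduced, was at 10603 and 11249.5 CPM in control and 10145, 9235 and 12668 CPM in etomoxir. In IO+DHEA it was at 2183 CPM in library 1 and 12442 CPM in library 2, a 5.70-fold difference within the group. By count, COX1 was the 68th most abundant gene in IO+DHEA library 1 and between the 2nd and the 6th in the other libraries, with no correction for length. COX3 was at 7247 and 6936 CPM in control, 7039.6, 7545 and 8696 CPM in etomoxir, and 3193 and 14332 CPM in IO+DHEA libraries 1 and 2. Here both IO+DHEA libraries lay outside the range of the other 5, on opposite sides and 4.49-fold apart. COX2, which receives electrons from cytochrome c, was at 2340.2 and 2658 CPM in control, 2122, 2125 and 2889.6 CPM in etomoxir, and 1375 and 2617 CPM in IO+DHEA.

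The fitted group differences for complex IV were therefore small beside their errors. For IO+DHEA over control the log2 fold changes were -0.58 ± 0.66 for COX1, -0.32 ± 0.33 for COX2 and 0.31 ± 0.58 for COX3 (SE, edgeR adjusted p = 0.643, 0.601 and 0.799). For etomoxir over control they were -0.03 ± 0.60, -0.07 ± 0.30 and 0.13 ± 0.53 (SE), each with an edgeR adjusted p of 1.

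Complex V transcripts had the extremes of COX3, low in IO+DHEA library 1 and high in library 2. ATP6 encodes the membrane subunit through which protons pass, and was at 1443 and 1600.2 CPM in control, 1452, 1739.9 and 1982 CPM in etomoxir, and 982 and 2991 CPM in IO+DHEA libraries 1 and 2. ATP8, a short subunit whose gene overlaps ATP6, was at 47.1 and 54.8 CPM in control, 49.9, 61.4 and 72.3 CPM in etomoxir and 23.0 and 80.6 CPM in IO+DHEA. For both transcripts IO+DHEA library 1 was the lowest and IO+DHEA library 2 the highest of the 7 libraries. Their log2 fold changes over control in IO+DHEA were 0.38 ± 0.46 (SE, edgeR adjusted p = 0.662) and 0.02 ± 0.51 (SE, edgeR adjusted p = 0.988).

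**Figure D3:**
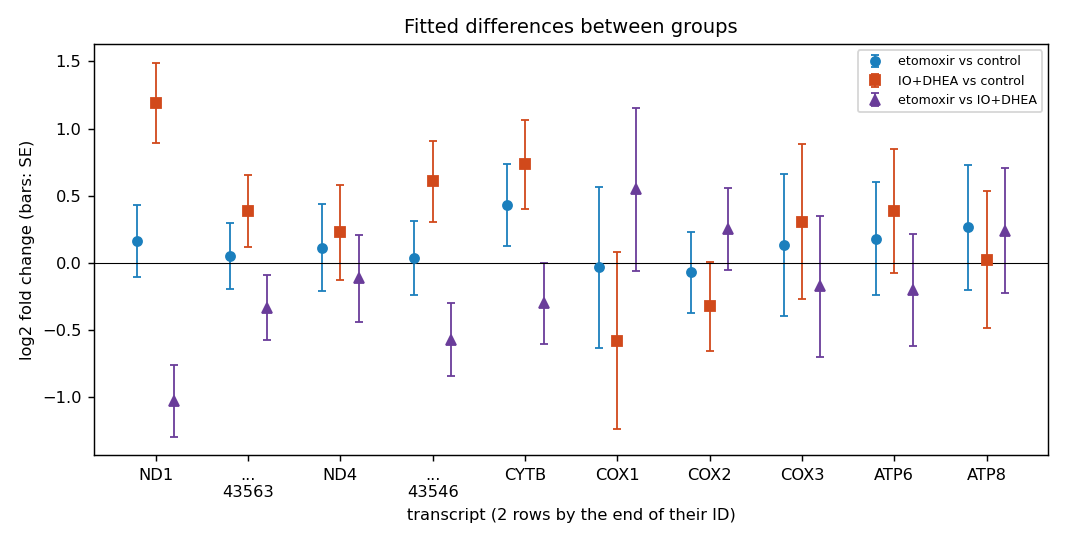
Log2 fold change (bars: SE) of each transcript for etomoxir against control, IO+DHEA against control and etomoxir against IO+DHEA, from the edgeR fit. ND1 is the transcript whose IO+DHEA differences, 1.19 and -1.03, are more than 3 times their SE.

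Counted over the set, 0 of 10 transcripts were called for etomoxir against control, where 0.00661% of all tested genes were, and 0 of 10 reached an unadjusted p under 0.05 in edgeR, where 3.40% of all genes did. DESeq2 and limma-voom also called 0 of 10, beside 0.457% and 0.00% of all genes. For IO+DHEA against control edgeR called 0 of 10, beside 6.94% of all tested genes, and 1 of 10 (ND1) had an unadjusted p under 0.05, where 25.1% of all genes did. DESeq2 and limma-voom each called 1 of 10 (ND1), beside 19.4% and 7.41% of all genes. For etomoxir against IO+DHEA 1 of 10 was called (ND1, lower in etomoxir), beside 11.7% of all tested genes. The median log2 fold change of the 10 was 0.12, 0.34 and -0.19 in these comparisons, where the median of all tested genes was 0.02, -0.01 and 0.08. Single libraries turned these medians: for IO+DHEA against control it was 0.84 without IO+DHEA library 1 and -0.40 without library 2. For etomoxir against IO+DHEA it was -0.66 and 0.53 in the same fits, and for etomoxir against control it was -0.04 without etomoxir library 3. The values of the groups were fully separate for 1 of 10 transcripts in etomoxir against control (25.3% of all tested genes), 4 of 10 in IO+DHEA against control (49.6%) and 1 of 10 in etomoxir against IO+DHEA (44.4%). Each of these shares of separate transcripts was below that of all tested genes. They use TMM-scaled levels. On unscaled totals ENSBTAG00000043563, ENSBTAG00000043546 and CYTB in IO+DHEA were no longer separate from control. The 3 comparisons share libraries and are not independent of each other.

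Leaving out either IO+DHEA library raised the number of calls, in opposite directions. These fits assume that the lone remaining IO+DHEA library varies like the other groups. Without IO+DHEA library 1, 5 of 10 transcripts were higher in IO+DHEA than in control: ND1, ENSBTAG00000043546, CYTB, COX3 and ATP6, with log2 fold changes of 1.57, 0.99, 1.17, 1.05 and 1.01 and edgeR adjusted p-values of 0.00684 to 0.0299. Without IO+DHEA library 2, ND1 was again higher, by 0.74 ± 0.22 (SE, edgeR adjusted p = 0.0431). In that fit COX1, COX2, COX3 and ATP8 were lower, with log2 fold changes of -2.33, -0.86, -1.15 and -1.15 and edgeR adjusted p-values of 0.00155 to 0.0313. COX3 was thus called in both directions, according to the library kept, while ND1 was called higher with either. All tested genes were also called more often in these fits, 13.4% and 23.1%, than with both libraries. In etomoxir against IO+DHEA, 5 of 10 (ND1, ENSBTAG00000043546, CYTB, COX3 and ATP6) were lower in etomoxir without IO+DHEA library 1, beside 14.2% of all tested genes. Without IO+DHEA library 2, 5 of 10 (COX1, COX2, COX3, ATP6 and ATP8) were higher in etomoxir, beside 28.2%.

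Between the IO+DHEA libraries, 4 of 10 transcripts (COX1, COX3, ATP6 and ATP8) were over 2-fold higher in library 2 than in library 1. Of all tested genes 28.0% were, and of the 2994 genes with a mean over 50 CPM, which include all 10 transcripts, 4.64% were. Each of the 10 was higher in library 2, by 0.52 to 2.51 on the log2 scale. In the other groups the 10 differed between libraries by at most 0.40 in control and 0.86 in etomoxir on that scale. Etomoxir library 3 was above etomoxir library 1 for all 10, by 0.25 to 0.86.

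The transcripts that lay lowest against control in IO+DHEA library 1 stood next to each other on the genome. Read in the order of the table, COX1, COX2, ATP8, ATP6 and COX3 are 5 consecutive protein-coding genes in RefSeq's list. In IO+DHEA library 1 these were at -2.32, -0.86, -1.15, -0.63 and -1.15 on the log2 scale relative to the mean of the controls. The transcripts before and after them were at 0.74 for ND1, -0.15 for ND4, 0.10 for ENSBTAG00000043563, 0.14 for ENSBTAG00000043546 and 0.17 for CYTB. The 5 transcripts from COX1 to COX3 were all below the other 5 in this library, an order within 1 library that scaling cannot change. The 5 stayed below control under each scaling tried, at most at -0.57 with median-of-ratios, -0.41 with upper quartile and -0.87 with unscaled totals. The other 5 ran from -0.09 to 0.80, 0.07 to 0.96 and -0.39 to 0.50 under these scalings. On unscaled totals all of those but ND1 were also below both controls in this library, so their place relative to control depends on the scaling. In IO+DHEA library 2 the same 5 were at 0.07 to 1.02 and the other 5 at 0.53 to 1.53, so the ranges overlapped. One library carries this pattern, and it has no replicate. The stretch was not a group set in advance and was picked out with the values known.

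**Figure D4:**
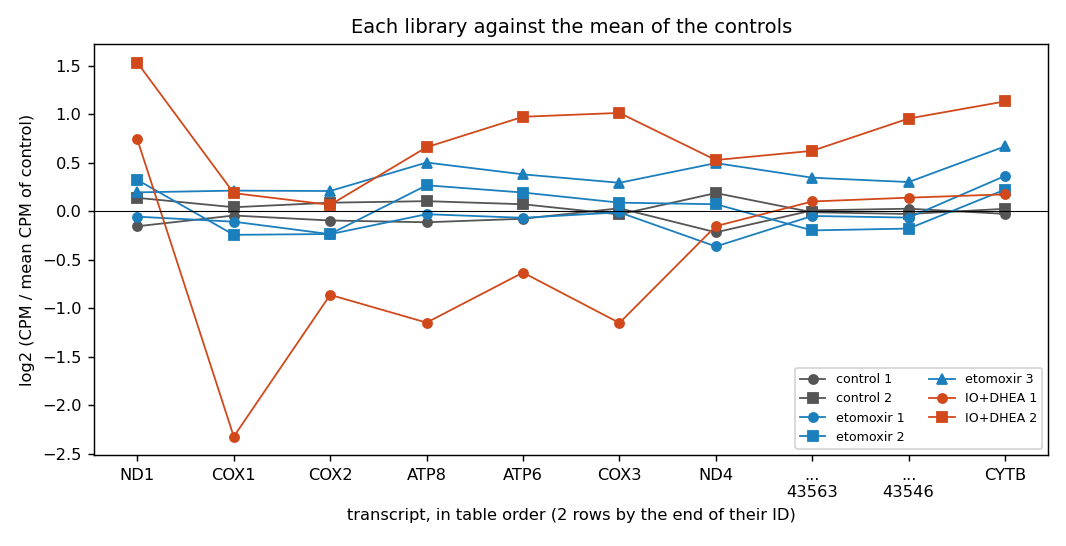
Log2 ratio of each library to the mean of the 2 controls for the 10 transcripts, in the order of the deposited table, with 1 line per library. The line of IO+DHEA library 1 drops to between -2.32 and -0.63 from COX1 to COX3 and lies between -0.15 and 0.74 outside that stretch.

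The makeup of the mitochondrial counts does not depend on the scaling between libraries. For COX1, ND1 and some others, the shares in both IO+DHEA libraries lay on 1 side of the other 5 libraries. COX1 held 39.5% and 39.8% of the counts of the 10 transcripts in control, 38.4%, 34.7% and 37.2% in etomoxir, against 15.9% and 29.1% in IO+DHEA libraries 1 and 2. ND1 held 1.54% and 1.79% in control, 1.68%, 2.17% and 1.55% in etomoxir, against 5.61% and 3.12% in IO+DHEA. The share of COX1 was below, and that of ND1 above, all other libraries in both IO+DHEA libraries. The same held, upwards, for CYTB, ATP6 and ENSBTAG00000043546. ATP6 was at 7.16% and 6.99% in the IO+DHEA libraries, against 5.38% to 6.55% elsewhere. For the other 5 transcripts, IO+DHEA was not on 1 side of all other libraries. By level, IO+DHEA did not overlap control for 49.6% of all tested genes, or etomoxir for 44.4%. No such share was computed for makeup. Shares of 1 total are not independent, so a lower share of COX1 raises those of the rest.

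**Figure D5:**
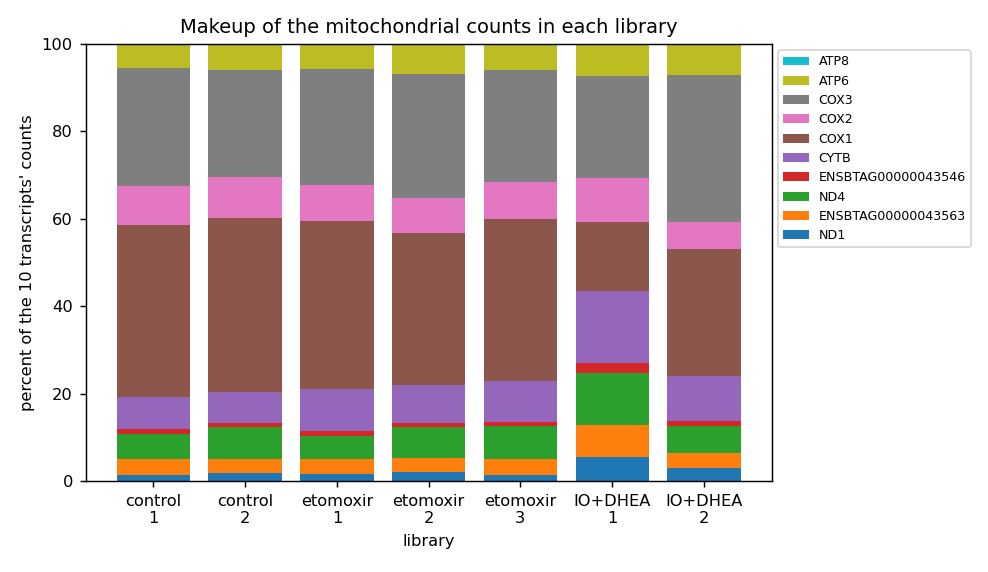
Percent of the counts of the 10 transcripts that fell on each, with 1 stacked bar per library. COX1 (brown) takes 34.7% to 39.8% in the control and etomoxir libraries, and 15.9% and 29.1% in IO+DHEA libraries 1 and 2.

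Ratios between pairs of transcripts show the makeup directly, and those named here were picked with their values known. COX3 had 0.683 and 0.617 counts per COX1 count in control and 0.694, 0.817 and 0.686 in etomoxir, but 1.46 and 1.15 in IO+DHEA. ND1 had 0.0390 and 0.0451 counts per COX1 count in control, 0.0437, 0.0624 and 0.0416 in etomoxir, against 0.353 and 0.107 in IO+DHEA. Both ratios were higher in each IO+DHEA library than in any other. ND1 per ND4 was close between the IO+DHEA libraries, at 0.471 and 0.508, against 0.206 to 0.314 elsewhere. The log2 ratio of the 4 rows listed as ND to the 3 COX transcripts was -2.56 ± 0.14 in control (SD, n = 2), -2.50 ± 0.16 in etomoxir (SD, n = 3) and -1.59 ± 1.02 in IO+DHEA (SD, n = 2). The difference was 0.98 for IO+DHEA against control (exact two-sided permutation p = 0.333) and -0.91 for etomoxir against IO+DHEA (exact permutation p = 0.2), the smallest p-values these group sizes allow. For etomoxir against control it was 0.07 (exact permutation p = 0.6), and adjusted over the 6 library-level tests the values were 0.8, 0.8 and 0.9. The difference of IO+DHEA from control was 1.70 with IO+DHEA library 1 alone and 0.25 with library 2 alone, so library 1 carried more of it. For etomoxir against IO+DHEA it was -1.63 with IO+DHEA library 1 alone and -0.18 with library 2 alone. With ND1 and ND4 alone over the COX transcripts the difference of IO+DHEA from control was 0.99.

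In makeup, CYTB was the transcript that separated etomoxir from control most clearly, though separation by level was not rare among all genes. Its share of the counts of the 10 transcripts was 7.30% and 7.17% in control and 9.73%, 8.76% and 9.30% in etomoxir, with no overlap. The shares of COX1 and COX2 did not overlap either and were lower in etomoxir, with COX2 at 8.72% and 9.39% in control against 8.04%, 7.995% and 8.48%. CYTB had 0.185 and 0.180 counts per COX1 count in control and 0.253, 0.252 and 0.250 in etomoxir, so the 3 etomoxir libraries differed from each other by far less than from the controls. In IO+DHEA the ratio was 1.03 and 0.352. Of the 45 ratios between 2 of the 10 transcripts, 11 did not overlap between etomoxir and control. For IO+DHEA against control 30 did not, and for etomoxir against IO+DHEA 24. Levels of single genes did not overlap for 25.3%, 49.6% and 44.4% in these comparisons. Ratios and single levels are unlike measures, and no share was computed for ratios of other genes, so these counts have no matched background. The gap between the groups was wider than the range within either for 4, 11 and 6 ratios. No share of all genes was computed for this measure and the ratios share transcripts, so whether these counts are unusual was not tested. The 4 between etomoxir and control all involved CYTB, set against COX1, COX2, ENSBTAG00000043563 and ENSBTAG00000043546. These ratios were singled out after their values were seen and share CYTB, so no test is given for them. In the fit of control and etomoxir alone CYTB had an edgeR adjusted p of 0.474.

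Over the 7 libraries, the summed level of the 10 transcripts followed the COX and ATP transcripts more closely than ND1 and ND4. On log2 CPM, Pearson's r with the sum was 0.98 for COX3, 0.97 for ATP8, 0.94 for ATP6, 0.92 for COX1 and 0.92 for COX2, against 0.66 for ND4, 0.63 for CYTB, 0.52 for each of the 2 unnamed rows and 0.20 for ND1. These values describe 7 libraries, of which the IO+DHEA pair gives most of the range, and each transcript is part of the sum. ENSBTAG00000043563 and ENSBTAG00000043546 were the most alike of all pairs, with an r of 0.97, and COX1 and ND1 the least, with an r of -0.18. Among the 7610 genes that averaged 5 CPM or more, the rows outside the set that were most like the sum were ENSBTAG00000049341, with an r of 0.98, and ENSBTAG00000009778, with an r of 0.98. Of its 50 most correlated genes, each of the 10 transcripts had 0 to 2 that were other members of the set.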

How the data were processed

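The values are read counts per gene in 7 libraries, as deposited by the authors in 1 table. Libraries were made from total RNA with the SMARTer Ultra Low Input v4 and Nextera XT kits, per the labels' protocols. Reads were trimmed with cutadapt 1.18, aligned with STAR 2.7.9a and counted with featureCounts 2.0.1 on ARS-UCD1.2, per the submitters' processing notes. The sources used here give neither strand and multi-mapping settings nor the annotation release.

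Groups came from the treatment labels. Genes were kept by filterByExpr (minimum count 10, minimum total 15). All 7 libraries entered 1 quasi-likelihood fit (edgeR 4.0.16 in R 4.3.3, TMM factors, 4 residual degrees of freedom), with Benjamini-Hochberg adjustment over 15134 genes. SEs are the fold change divided by the square root of F. DESeq2 1.42.0 and limma-voom (limma 3.58.1) were alternatives, with other scalings, filters, a replicate block, each library left out, and fits without the group not compared. The fit was tested on simulated data. Library-level values were compared by exact permutation. Within each group, libraries differed beyond counting error by a chi-square test of their counts. The RefSeq gene table (assembly ARS-UCD2.0) held none of the Ensembl IDs (0 matches) and served only for gene order, so pathway lists and marker lists were not analysed and no sequence is printed.

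Transcripts and lists were chosen with earlier results of these data known. All 10 transcripts are given by name. The genes most like their sum were the 2 nearest by Pearson's r on log2 CPM among genes that averaged 5 CPM or more.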

Additional observations from a re-analysis of the deposited data

How the results depend on the processing

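For etomoxir against control, 0 of 10 transcripts were called under every alternative run, libraries left out included. For IO+DHEA against control the count went from 0 to 1 (ND1 each time) with median-of-ratios scaling, upper quartile scaling, a filter of 5 CPM in 2 libraries, DESeq2 and limma-voom, where 7.14%, 7.28%, 19.7%, 19.4% and 7.41% of all genes were called, and ran from 0 to 5 with a library left out. For etomoxir against IO+DHEA it went from 1 to 0 in a fit of the compared groups alone and with the replicate block, and ran from 0 to 5 with a library left out. The labels do not say what replicate numbers mark. Deviations of same-numbered libraries correlated at -0.24 to 0.14, which gave no sign of pairing but cannot exclude it with so few libraries. With the block, edgeR called 0 of all tested genes in each comparison, and the log2 fold changes for etomoxir against control became -0.12 for ENSBTAG00000043563, -0.13 for ND4 and -0.12 for ENSBTAG00000043546. ATP8 in IO+DHEA against control turned to -0.17 with the replicate block, -0.000433 with no filter and -0.18 with limma-voom. COX3 by limma-voom was at -0.057 in IO+DHEA against control and 0.18 in etomoxir against IO+DHEA. Upper quartile scaling moved the median of all genes in IO+DHEA against control by 0.19, and limma-voom to -0.18. With 1 library left out, the share of counts differed by -1.58 to 1.92 percentage points for IO+DHEA against control and by -1.66 to 1.85 for etomoxir against IO+DHEA, and the log2 ND to COX ratio by -0.029 to 0.16 for etomoxir against control. Log2 fold changes that turned with a library left out ran, for etomoxir against control, from -0.12 to 0.14 (ENSBTAG00000043563), -0.13 to 0.30 (ND4), -0.12 to 0.11 (ENSBTAG00000043546) and -0.17 to 0.040 (COX1). For IO+DHEA against control they ran from -0.16 to 0.56 (ND4), -2.33 to 0.22 (COX1), -0.86 to 0.10 (COX2), -1.15 to 1.05 (COX3), -0.63 to 1.01 (ATP6) and -1.15 to 0.69 (ATP8). For etomoxir against IO+DHEA they ran from -0.44 to 0.27 (ND4), -0.73 to 0.26 (CYTB), -0.25 to 2.29 (COX1), -0.16 to 0.79 (COX2), -0.91 to 1.28 (COX3), -0.82 to 0.82 (ATP6) and -0.42 to 1.41 (ATP8). Of 510 values of single transcripts under an alternative, 453 kept their direction and side of the threshold, 29 turned, 24 passed the threshold newly (4 of them among those that turned) and 8 no longer passed it. The cause was not tested. Counting error is small at this depth, and the number of libraries limits the precision. The ratio of the ND rows to COX without the 2 unnamed rows, and the share without them, were added after seeing the data and kept their directions. For the row ENSBTAG00000043570 under other observations, the log2 difference of etomoxir from control was 0.02, turned to -0.000265 with no filter and ran from -0.10 to 0.11 with a library left out.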

Other observations

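A pair of rows that stand 4 and 2 places before ND1 in the deposited table, ENSBTAG00000043567 and ENSBTAG00000043570, was looked at after its values were seen. No source used here pairs their IDs with a name. The check of names by gene order was made for the 10 transcripts alone and not for these rows, so they are given by ID. Together they held 0.814% and 0.873% of all counts in control, 0.825%, 0.901% and 0.807% in etomoxir, against 2.87% and 1.28% in IO+DHEA libraries 1 and 2. They were highest in the library where the 10 transcripts were lowest. The 10 transcripts had 3.30 and 3.18 counts per count of these rows in control, 3.43, 3.04 and 4.25 in etomoxir, against 0.402 and 3.62 in IO+DHEA. ENSBTAG00000043567 was lower in etomoxir than in IO+DHEA, by a log2 fold change of -1.54 ± 0.40 (SE, edgeR adjusted p = 0.0472). ENSBTAG00000043570 had -1.40 ± 0.39 (SE, edgeR adjusted p = 0.0597). Against control their log2 fold changes in IO+DHEA were 1.44 ± 0.45 and 1.42 ± 0.44 (SE, edgeR adjusted p = 0.0987 and 0.0970). With IO+DHEA library 1 left out, the differences of etomoxir from IO+DHEA were -0.60 and -0.47 (edgeR adjusted p = 0.0291 and 0.0638), and with library 2 left out -2.11 and -1.97 (edgeR adjusted p = 0.000789 for both). Against control they were 0.51 and 0.50 (edgeR adjusted p = 0.0628 and 0.0679) and 2.01 and 1.99 (edgeR adjusted p = 0.00119 and 0.00122). The call of ENSBTAG00000043567 was lost without each control library and each etomoxir library (edgeR adjusted p = 0.0825 to 0.157), in a fit of the compared groups alone (0.0833), with the replicate block (0.275) and by limma-voom (0.0510). These alternatives were added after seeing the data.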
